A study of Homo sapiens with 6 samples.

Results

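NEAT1, the long noncoding RNA that forms the scaffold of paraspeckles, was examined together with 4 paraspeckle proteins, SFPQ, NONO, PSPC1 and RBM14. The 5 genes were found by their symbols in the deposited table of read counts, where each had a single row, out of 28675 genes in all. They were selected on earlier measured differences between the same 2 groups of libraries. Their own levels and differences are therefore given as a description, with no p-value, and nothing is read from a test of them. RNA was sequenced from MDA-MB-231, an established human line of triple-negative breast cancer, which lacks the estrogen and progesterone receptors and HER2 amplification. Per the labels, 3 libraries came from cells of the genotype "No-load control" and 3 from cells of the genotype "LARP6 overexpression". LARP6 belongs to the La-related proteins and binds RNA, best known from collagen mRNAs. The labels give no vector, promoter, clone, time or culture for either group. Whether the 3 libraries of a group are 3 cultures is not stated, so the spread that the p-values measure may be technical. Below, a value after ± is the SD over the 3 libraries of a group (n = 3) unless it is marked as a standard error (SE).

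Paraspeckles are nuclear bodies built on NEAT1. The gene makes a short polyadenylated RNA and a long RNA from the same start, and the long one is needed to build the body. SFPQ, NONO and PSPC1 belong to the DBHS family (Drosophila behavior/human splicing), whose members pair with each other, bind RNA and coat the long NEAT1 RNA. SFPQ and NONO stabilise the long RNA, PSPC1 is found in the body without being essential for it, and RBM14 has a prion-like domain and helps to join the units into a whole body. In breast and other cancer cells, NEAT1 is known to be induced by hypoxia and stress signals.

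Depth was 29409101 to 33387050 counts per library. LARP6 was at 42.7 ± 1.85 CPM (counts per 1000000 counts of the library, scaled by TMM) in controls and 2108 ± 104 CPM with LARP6 overexpression, so each library matched its label. The 7 markers of the cell line, among them VIM, CD44, AXL, CAV1, MSN and LAMB3, were all detected, summing to 6033 to 6137 CPM in controls and 6260 to 6382 CPM with LARP6. CAV1 and VIM, 2 of the 7, passed the test as higher, and 0 of the 7 did without control library 1, control library 2, LARP6 library 1 or LARP6 library 2. VIM, the largest part of the marker sum, went from 3151 ± 34.4 CPM in controls to 3345 ± 46.6 CPM with LARP6. CD44 went from 761 ± 10.5 to 724 ± 19.9 CPM, and all 3 LARP6 libraries lay below all 3 controls. Its log2 fold change was -0.07 ± 0.03 (SE), with an adjusted p of 0.0672 in edgeR, so it was not called. It passed as lower in 5 of 20 alternative settings, limma-voom and the replicate block among them. Of all genes tested, 2.43% passed as higher and 3.60% as lower. The sum moves with the groups, though the markers did not all move together. Its part in the results below was not tested. ESR1 and PGR were below the low-count filter, and ERBB2 was at 57.2 ± 2.20 CPM in controls. Of the leukocyte markers, CD3E and LYZ were below the filter, and the summed level was 4.23 to 5.15 CPM in controls and 4.89 to 5.14 CPM with LARP6. Fibroblast markers, with COL3A1 and PDGFRA below the filter, summed to 8.47 to 10.8 CPM in the control group and 8.48 to 10.8 CPM in the other.

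The ends of the NEAT1 transcripts are shown because they decide what a count for this gene can mean. NEAT1 (ENSG00000245532.9) lies on chromosome 11 from 65422774 to 65445540 on the plus strand of GRCh38 in GENCODE v29, which gives it 8 transcripts. NEAT1-202 is the long RNA, a single exon of 22743 bases, and the other transcripts end in the first 3716 bases of it. The segment around the end of the short RNA, chr11:65426459-65426548, holds the polyadenylation signal, in capitals.
short NEAT1 end: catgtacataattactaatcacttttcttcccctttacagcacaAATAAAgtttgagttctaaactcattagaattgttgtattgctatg
The long RNA has no poly(A) tail. Its last 130 bases, chr11:65445411-65445540, carry a pair of U-rich stretches and an A-rich stretch at the very end, in capitals (T stands for U), of the kind known to fold into a triple helix that protects the end.
long NEAT1 end: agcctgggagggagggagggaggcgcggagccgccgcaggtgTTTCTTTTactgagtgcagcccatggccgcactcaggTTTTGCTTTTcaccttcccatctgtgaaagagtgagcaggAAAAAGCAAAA
The part shared with the short transcripts is 16.3% of the long RNA and has 48.3% GC, against 43.2% in the 19027 bases that only the long RNA has. AATAAA stands at 8 places on the plus strand of the long RNA, 2 of them in the shared part.

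A count for NEAT1 cannot be assigned to the short or the long RNA, because each table gives a single value per gene. The libraries were made with a stranded mRNA kit, per the labels' protocols, and the labels do not describe how mRNA was selected. The deposited counts and FPKM values (fragments per kilobase of gene and per 1000000 fragments) together give the gene length the authors divided by. Calibrated on 1169 genes with a single annotated transcript, that length was 22773 bases for NEAT1, 1.001 times the long RNA, so the authors' FPKM spreads all NEAT1 reads over the long RNA. The lengths for SFPQ, NONO, PSPC1 and RBM14 were 7420, 11224, 4817 and 6482 bases, which is 1.98 to 3.49 times their longest transcript in GENCODE v29.

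NEAT1 stood at a higher level in every LARP6 library than in any control library. It was at 91.1, 86.8 and 104 CPM in control libraries 1, 2 and 3, and at 151, 145 and 131 CPM in LARP6 libraries 1, 2 and 3. The lowest LARP6 library and the highest control library were both library 3 of their group, and the groups did not overlap. The control mean was 94.0 ± 9.11 CPM and the LARP6 mean 142 ± 10.2 CPM, a fold of 1.51 and a log2 fold change of 0.59 ± 0.09 (SE of the edgeR fit). In bulk RNA, more cells with NEAT1 and more NEAT1 per cell cannot be told apart. These levels rest on 2560 to 3421 counts per control library and 4145 to 4495 per LARP6 library. In control library 3, the highest control, NEAT1 took 0.0103% of counts (exact Clopper-Pearson 95% interval 0.00991% to 0.0106%). In LARP6 library 3, the lowest of its group, it took 0.0131% (0.0127% to 0.0135%), and these are intervals that cover counting error only. Counting LARP6 itself, 6 of the genes averaging 5 CPM or more had a higher log2 fold change than NEAT1.

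The 3 DBHS genes differed little between the groups. SFPQ (chromosome 1, 35176378 to 35193148, minus strand) was at 256, 247 and 253 CPM in control libraries 1, 2 and 3 and at 261, 265 and 251 CPM in LARP6 libraries 1, 2 and 3. The groups overlapped, since LARP6 library 3 lay below control libraries 1 and 3, and the log2 fold change was 0.04 ± 0.03 (SE). NONO (chromosome X, 71283192 to 71301168, plus strand) was at 370, 368 and 380 CPM in controls and at 354, 364 and 356 CPM in LARP6 libraries. All 3 LARP6 libraries lay below all 3 controls, by a small margin, with a log2 fold change of -0.06 ± 0.03 (SE) and a mean difference of -4.01%. PSPC1 (chromosome 13, 19674752 to 19783019, minus strand) was at 46.6, 48.8 and 51.0 CPM in controls and at 51.8, 49.1 and 51.4 CPM in LARP6 libraries. Its groups overlapped, and the log2 fold change was 0.06 ± 0.05 (SE).

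RBM14 was slightly lower in the LARP6 libraries, with overlapping groups. It was at 79.9, 79.3 and 76.6 CPM in control libraries 1, 2 and 3 and at 77.1, 70.7 and 73.6 CPM in LARP6 libraries 1, 2 and 3, a log2 fold change of -0.09 ± 0.04 (SE). Only LARP6 library 1 reached the range of the controls. RBM14 (chromosome 11, 66616582 to 66627347, plus strand) overlaps the readthrough gene RBM14-RBM4 on the same strand, which had 85.3 ± 1.71 CPM in controls and 82.6 ± 2.79 CPM with LARP6. RBM4 itself had 4.94 ± 1.06 and 4.89 ± 0.790 CPM. How reads were divided between these rows is not given in the sources used here, so the level of RBM14 is uncertain. The log2 fold change of the readthrough gene was -0.05 ± 0.04 (SE), with an adjusted p of 0.550 in edgeR. For the other members, few reads came from related rows: the pseudogenes NONOP2 and PSPC1P1 and the antisense gene PSPC1-AS2 were below the low-count filter, and no other gene in the table overlapped NEAT1, SFPQ or NONO in GENCODE v29.

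**Figure D1:**
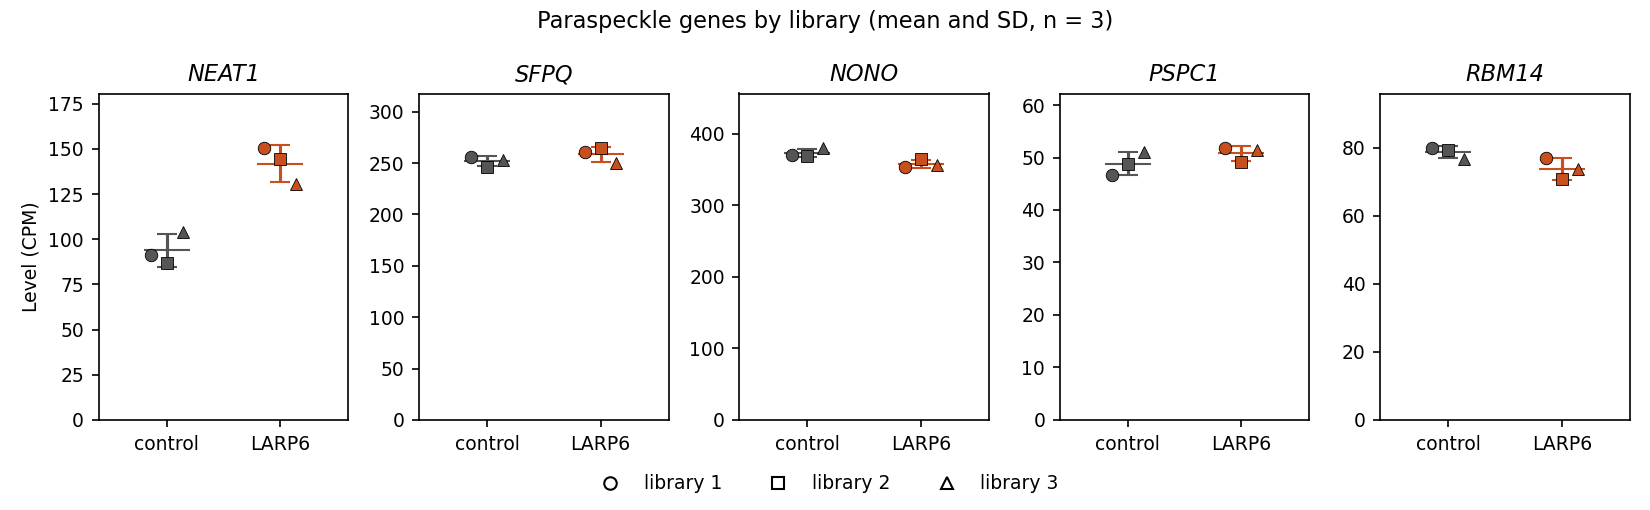
Level in CPM (vertical axes from 0, one scale per gene) of NEAT1, SFPQ, NONO, PSPC1 and RBM14 in the 3 control and 3 LARP6 libraries, with a marker for each library and the mean and SD of each group. NEAT1 lies at 86.8 to 104 CPM in controls and 131 to 151 CPM in LARP6 libraries, while the 4 protein genes differ by at most 6.14% between group means.

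Of the 5 genes, 1 (NEAT1) was past the threshold of an edgeR adjusted p below 0.05, against 6.03% of the 16226 genes tested. Since the genes were chosen with this contrast known, nothing is read from that count. The groups did not overlap for NEAT1 (higher) and NONO (lower), against 22.3% of all genes tested. The log2 fold change of NEAT1 ran from 0.50 to 0.68 over 20 alternative settings, and leaving out single libraries gave 0.54 to 0.68. NEAT1 stayed past the threshold in 12 of these 20 settings and lost it in 8. Among those 8 were upper-quartile scaling, GC and length offsets, the replicate block and some fits with fewer libraries. NONO was past the threshold, as lower, in 1 of the 20, the replicate block combined with the offsets. These counts of settings rest on the contrast used to choose the genes, so they give no support for a difference.

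**Figure D2:**
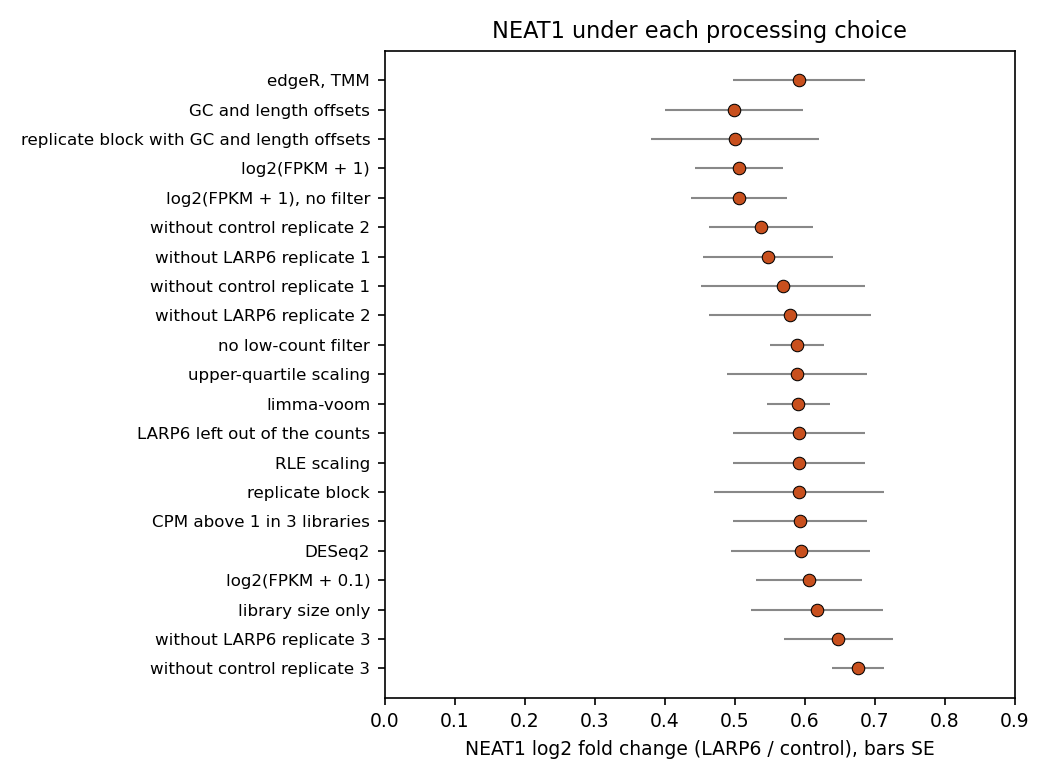
NEAT1 log2 fold change of LARP6 over control (horizontal axis, bars SE) under the edgeR fit with TMM scaling (top) and each of 20 alternatives, ordered by value. All values lie between 0.50 and 0.68, and the SE lies between 0.04 and 0.12.

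NEAT1 varied far more between libraries of one group than the protein genes did. This spread does not depend on the difference between the groups. Its coefficient of variation beyond counting error, from edgeR's dispersion, was 7.85%, higher than in 99.5% of the 11072 genes averaging 5 CPM or more. This is an estimate that edgeR draws towards genes of like level, not the gene's own spread alone. The same quantity was 2.39% for SFPQ, 2.35% for NONO, 3.17% for PSPC1 and 2.83% for RBM14. These lie above 5.5%, 2.4%, 36.9% and 25.2% of the same genes, respectively. For NONO the estimate exceeds the observed SDs, which were 1.66% of the mean in controls and 1.61% with LARP6. In these well expressed protein genes, then, the libraries of one group lay close together, with SDs of 1.61% to 4.45% of the mean.

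**Figure D3:**
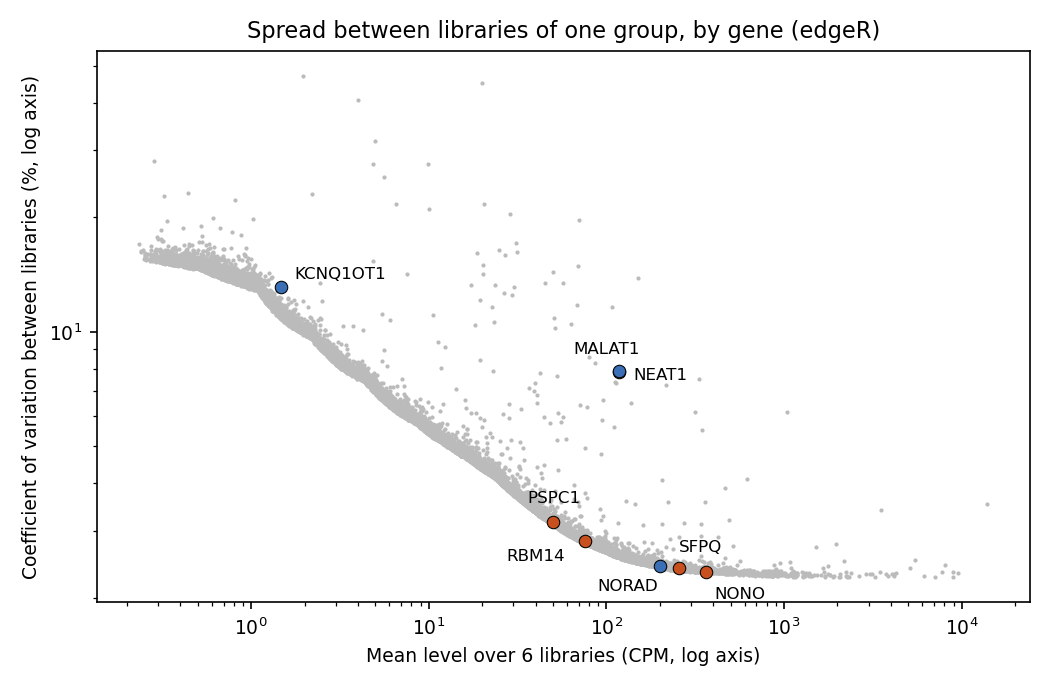
Coefficient of variation between libraries of one group from edgeR (vertical log axis, %) against mean level (horizontal log axis, CPM) for all 16226 tested genes in grey, with the 5 paraspeckle genes in orange and 3 other noncoding RNAs in blue. NEAT1 (7.85%) and MALAT1 (7.89%) lie almost on the same point, well above the band of genes of like level, and the 4 protein genes lie within the band.

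Per length, SFPQ and NONO mRNAs were the most abundant of the 5 and NEAT1 the least. In the authors' deposited FPKM, the control means were 29.7 ± 0.641 for SFPQ, 29.1 ± 0.416 for NONO, 10.6 ± 0.279 for RBM14, 8.86 ± 0.355 for PSPC1 and 3.61 ± 0.340 for NEAT1. SFPQ and NONO overlapped in the controls, with 29.03 to 30.31 for SFPQ and 28.66 to 29.49 for NONO. In the LARP6 libraries they did not, with 30.1 to 31.78 for SFPQ and 27.97 to 28.91 for NONO. The LARP6 means were 31.0 ± 0.852 for SFPQ, 28.4 ± 0.484 for NONO, 10.1 ± 0.420 for RBM14, 9.38 ± 0.258 for PSPC1 and 5.55 ± 0.386 for NEAT1, in the same order as in controls. The place of NEAT1 depends on the length used: if all its reads came from the 3716 bases shared with the short RNA, the same values would be 22.1 ± 2.08 in controls and 34.0 ± 2.36 with LARP6. The lengths used for the protein genes exceed their longest annotated transcript, so the order of their levels also depends on the annotation.

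The makeup of the DBHS mRNA pool differed by small amounts between the groups. Summed FPKM of SFPQ, NONO and PSPC1 was 67.6 ± 0.970 in controls and 68.8 ± 0.967 with LARP6. Of this sum, SFPQ made up 43.9% ± 0.666 in controls and 45.1% ± 0.642 with LARP6. NONO made up 43.0% ± 0.172 and 41.3% ± 0.486, and PSPC1 13.1% ± 0.496 and 13.6% ± 0.544, in the same order of groups. SFPQ stood at 1.01 to 1.04 times NONO in the control libraries and at 1.07 to 1.12 times in the LARP6 libraries, so this ratio did not overlap between groups. It is built from the values that were in view when the genes were chosen, and it was not tested.

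MALAT1, the nuclear noncoding RNA encoded next to NEAT1, moved in the same direction. MALAT1 (chromosome 11, 65497688 to 65506516, plus strand) was at 91.5, 76.1 and 86.2 CPM in control libraries 1, 2 and 3 and at 166, 143 and 148 CPM in LARP6 libraries 1, 2 and 3, which is 0.85 ± 0.09 on the log2 scale (SE; adjusted p = 0.0147 in edgeR). NEAT1 had 0.996 to 1.21 reads per MALAT1 read in controls and 0.883 to 1.01 in LARP6 libraries, ranges that overlap. The protein-coding neighbours did not pass the test. Among them, FRMD8, upstream of NEAT1, had a log2 fold change of -0.01 ± 0.05, LTBP3 -0.05 ± 0.05 and SLC25A45 -0.26 ± 0.17 (SE). Of the 5 neighbours tested, 1 rose, MALAT1, and 0 fell in edgeR and in DESeq2.

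In a list of nuclear and long noncoding RNAs, MALAT1, KCNQ1OT1 and NORAD rose and the others tested did not pass. Of 6 tested, 3 rose in edgeR (2 in DESeq2) and 0 fell, against 2.43% higher (395) and 3.60% lower (584) among all genes tested. The list was drawn up with earlier results of these data known, so this comparison is a description only. Scaled by library size only, 687 genes were higher and 303 lower. The median log2 fold change of the list was 0.36 against 0.00 for all genes. KCNQ1OT1, the antisense RNA of an imprinted locus, was at 0.985, 0.847 and 0.884 CPM in controls and at 2.95, 2.07 and 1.17 CPM in LARP6 libraries (1.18 ± 0.25 on the log2 scale, SE; adjusted p = 0.000659 in edgeR). It rests on 25 to 88 counts per library, and without LARP6 library 1, with DESeq2 or on FPKM it did not pass. NORAD, a cytoplasmic RNA that binds PUMILIO proteins, went from 191 ± 1.46 to 208 ± 5.13 CPM (adjusted p = 0.00375 in edgeR). Its call was lost without LARP6 library 2, with the offsets and on FPKM. TUG1 (0.06 ± 0.04), OIP5-AS1 (0.09 ± 0.04) and MIAT (0.59 ± 0.43) were not called. All lncRNA genes other than NEAT1 took 1.22% to 1.24% of counts in controls and 1.22% to 1.27% in LARP6 libraries. Mitochondrial genes took 7.41% to 7.91% in controls and 7.17% to 7.40% in LARP6 libraries. That share moves with the groups, and its part in the difference of NEAT1 was not tested.

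**Figure D4:**
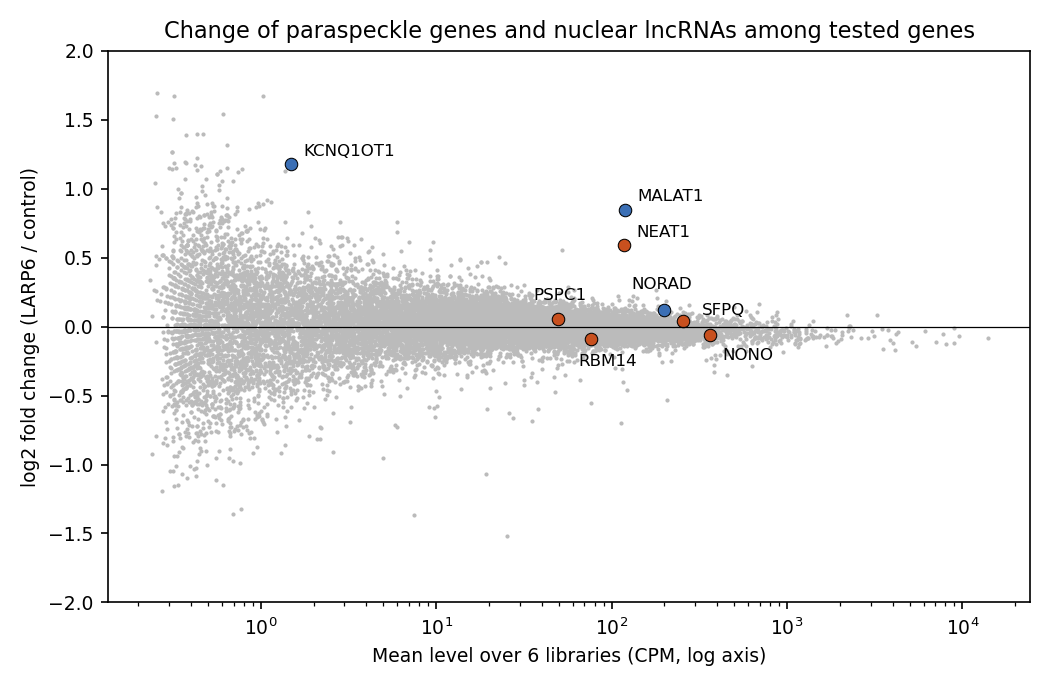
Log2 fold change of LARP6 over control (vertical axis) against mean level (horizontal log axis, CPM) for all tested genes except LARP6 in grey, with the 5 paraspeckle genes in orange and MALAT1, KCNQ1OT1 and NORAD in blue. NEAT1 (0.59) and MALAT1 (0.85) stand above the genes of like level, and SFPQ, NONO, PSPC1 and RBM14 lie between -0.09 and 0.06.

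Beyond the 4 protein members, most genes of the paraspeckle did not pass the test. Of 7 other proteins needed to build the body, HNRNPH3 rose (124 ± 4.75 to 135 ± 3.73 CPM; 0.12 ± 0.03 on the log2 scale, SE; adjusted p = 0.0126 in edgeR) and 6 were not called. The latter included HNRNPK, which favours the long NEAT1 RNA by blocking the short one's polyadenylation (0.02 ± 0.03), DAZAP1 (0.01 ± 0.03) and the chromatin remodeller gene SMARCA4 (-0.06 ± 0.03). Of 30 tested genes for other proteins found in paraspeckles, 3 rose in edgeR (2 in DESeq2). Neither tool called any lower, and 0 were lower at an unadjusted p below 0.05. SRSF10, a splicing regulator, rose from 118 ± 2.03 to 134 ± 3.05 CPM (0.19 ± 0.03 on the log2 scale, SE; adjusted p = 7.67e-06 in edgeR). HNRNPH1, a splicing regulator that binds G-rich RNA, rose by 0.16 ± 0.03, and SS18L1, a subunit of a chromatin remodelling complex, by 0.21 ± 0.07 (log2, SE; edgeR adjusted p = 2.28e-05 and 0.0439). The median log2 fold change was 0.02 among the builders and 0.05 among the other proteins.

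None of the 16 genes for cleavage and polyadenylation factors passed the test. CSTF3 (0.13 ± 0.05, edgeR adjusted p = 0.0848) and PAPOLA, the poly(A) polymerase gene (0.06 ± 0.03, SE, edgeR adjusted p = 0.293), had the smallest p. At an unadjusted p below 0.05, 1 of the 16 was past the threshold, and DESeq2 called 0. CSTF3 passed as higher without control library 1 (0.17) and with scaling to the library totals alone (0.16). The cleavage factor genes NUDT21 (0.06 ± 0.04) and CPSF6 (0.07 ± 0.04), whose proteins favour the short NEAT1 RNA, were counted among the paraspeckle proteins and were not called either. Over these 3 lists, 4 of 53 tested genes were higher and 0 lower, with a median log2 fold change of 0.04. The share higher was 7.55%, against 2.43% among all genes. Because the lists were chosen with earlier results of these data known, nothing is read from that comparison. Without LARP6 library 1 or without control library 3, 2 were higher, HNRNPH1 and SRSF10. With GC and length offsets 1 was, SRSF10, and scaled by library size only 7 were. The SS18L1 call was lost without any 1 of the 6 libraries.

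Among genes for transcription factors reported at the NEAT1 promoter, 5 fell by small amounts. Of 10 tested, 0 rose and 5 fell, against 3.60% lower among all genes, with a median log2 fold change of -0.07. This list too was chosen with earlier results of these data known, so the comparison is a description only. The heat shock factor gene HSF1 went from 136 ± 4.97 to 126 ± 3.31 CPM, a change of -0.11 ± 0.03 on the log2 scale (SE; adjusted p = 0.0196 in edgeR). EPAS1, which encodes the hypoxia factor HIF-2 alpha, changed by -0.12 ± 0.04 and the cell cycle factor gene E2F1 by -0.11 ± 0.03, and RELA, an NF-kB subunit gene, by -0.10 ± 0.03. HIF1A (0.04 ± 0.03) and STAT3 (-0.04 ± 0.03) were not called. Each of the 5 calls was lost under 9 to 11 of 20 alternatives, library size only and FPKM among them for all 5, with the sign unchanged. Without control library 1, 2 or 3 the test called 2, 1 and 2 of the 10 lower, and without LARP6 library 1, 2 or 3 it called 1, 0 and 3. DESeq2 called 2 lower.

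**Figure D5:**
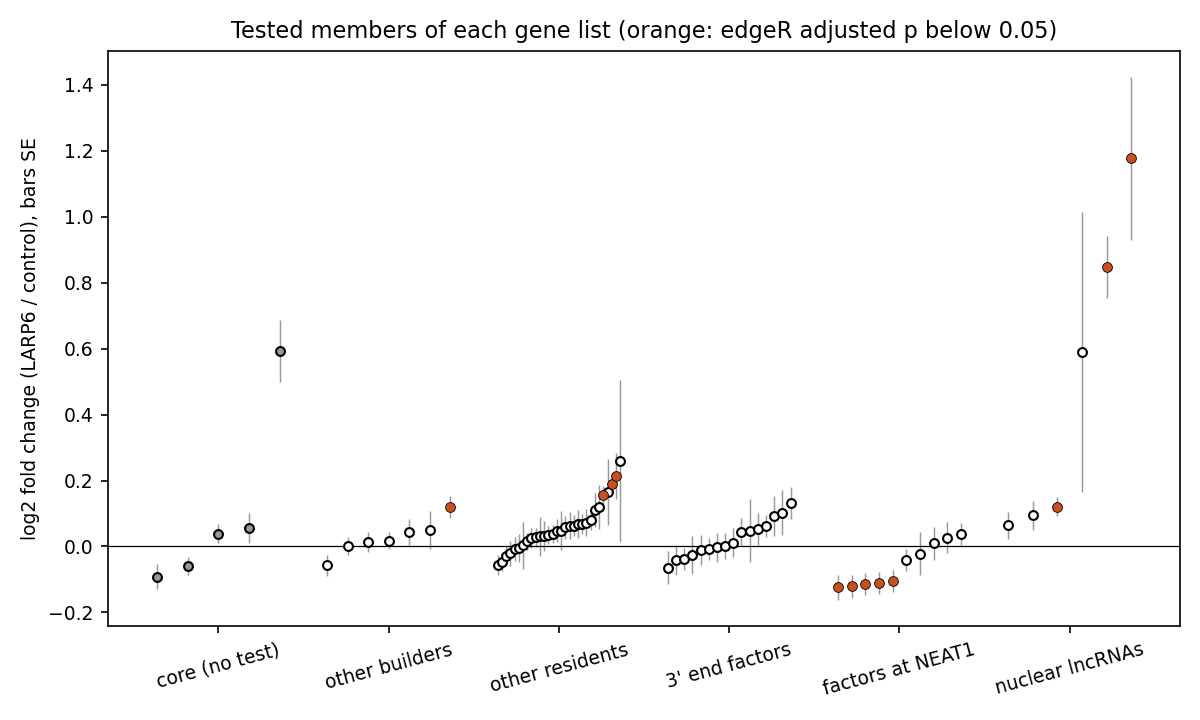
Log2 fold change of LARP6 over control (vertical axis, bars SE) for the tested members of 6 gene lists, ordered by value within each list. Orange marks an edgeR adjusted p below 0.05, white marks genes not called, and grey marks the 5 core genes, shown without a test. NEAT1 stands at 0.59, apart from the other core genes, and the 5 orange factors reported at NEAT1 lie at -0.10 to -0.12.

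Among reported targets of NEAT1 or SFPQ, CXCL8, the interleukin 8 gene that SFPQ is known to repress, fell from 33.8 ± 2.33 to 21.3 ± 0.287 CPM (-0.66 ± 0.06 on the log2 scale, SE; adjusted p = 8.24e-18 in edgeR). SLC7A2, whose mouse counterpart gives rise to an RNA retained in paraspeckles, changed by 0.03 ± 0.07 and was not called. CARM1, counted in the same list, encodes an arginine methyltransferase that modifies NONO, so it is not itself a target. It changed by -0.10 ± 0.04 and was not called, though it passed as lower with the replicate block. All 3 LARP6 libraries lay below all 3 controls for CARM1, against 11.7% of all genes tested. ADARB2 had no row in the table.

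Across the 6 libraries, NEAT1's level followed the division into groups, and so did the genes most like it. The highest Pearson r of log2 CPM with NEAT1, over 11071 other genes averaging 5 CPM or more, were 0.996 for NPIPB5, 0.995 for SPG7 and 0.987 each for AGO4, AHNAK2 and BEND7 (n = 6 libraries). Their log2 fold changes were 0.49, 0.18, 0.19, 0.22 and 0.12. NPIPB5 belongs to a segmentally duplicated family whose copies can share reads, so its value is uncertain. For SFPQ the most alike were ZNF626, BLOC1S6, POLD3, ARHGAP27 and TMEM245, at an r of 0.980 to 0.986, with log2 fold changes of 0.04 to 0.16. The points share libraries and their scaling, and the best of so many genes over 6 points will be high, so these are a description only. NEAT1's own r over the 6 libraries was 0.70 with SFPQ, 0.63 with PSPC1, -0.69 with NONO and -0.75 with RBM14. After each group's mean was taken out, it was 0.65, 0.44, 0.60 and -0.17, respectively.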

How the data were processed

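The authors deposited read counts per gene (whole numbers, not normalised) and FPKM values per gene for the same 6 libraries. The submitters' processing notes name HISAT2, DESeq2 and GRCh38. Which tool counted reads, whether by strand and on which annotation is not given in the sources used here. Groups were taken from the library titles. Counts were tested with edgeR 4.0.16 in R 4.3.3 (expression filter, TMM scaling, robust quasi-likelihood test, no covariate), with Benjamini-Hochberg adjustment over 16226 genes. CPM are counts per 1000000 of the TMM-scaled library. Alternatives were limma 3.58.1 (voom, and log2 of FPKM plus 1 or 0.1), DESeq2 1.42.0, other scalings and filters, GC and length offsets, a replicate block, a threshold of 0.01 and each library left out. Of the gene identifiers, 97.0% were in GENCODE v29, used for coordinates, lengths, GC content and the NEAT1 sequences. MATR3 had 2 rows, of which the more abundant was used. The scripts were tested on simulated counts.

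The members and gene lists were chosen with earlier results of these data known. The genes named were the 5 members, LARP6, and from each list the called genes of smallest p (at most 4), or, in a list without calls, the 2 of smallest p. The lists of neighbours, noncoding RNAs, targets and related rows were given in full, and the 5 genes most like NEAT1 and SFPQ were named. HNRNPK, DAZAP1, SMARCA4, NUDT21, CPSF6, RELA, HIF1A and STAT3 were named beyond this rule after their values were seen. Some genes counted in the lists are not reported here by name.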

Additional observations from a re-analysis of the deposited data

How the results depend on the processing

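For the 5 core genes, chosen on this contrast, only values are given here, and the settings that changed their calls are counted above. On the log2 scale, NEAT1 was 0.50 with GC and length offsets, 0.51 with unfiltered log2(FPKM + 1), 0.59 with upper-quartile scaling, 0.59 with the replicate block, 0.50 with the block and offsets together, and 0.54 to 0.68 with single libraries left out. NONO was -0.071 with the block and offsets together. Against 395 higher and 584 lower genes, the counts were 687 and 303 with library size only, 209 and 347 with GC and length offsets, 205 and 388 with the block and offsets, 148 and 295 at an adjusted p below 0.01, 38 and 54 on log2(FPKM + 0.1), 37 and 53 on log2(FPKM + 1) and 1 and 2 on unfiltered FPKM. DESeq2 called 211 higher. With single libraries left out they ran from 175 to 398 higher and from 281 to 642 lower, lowest without LARP6 library 2. The 4 higher genes of the wider lists became 7 with library size only, 1 with the offsets, 2 with the block and offsets, 2 at 0.01, 1 on log2(FPKM + 1) and on log2(FPKM + 0.1), 0 on unfiltered FPKM and 2 to 4 with single libraries left out. Where no value shows otherwise, the cause was not tested. Whether the replicate numbers pair the libraries was not settled. Same-numbered deviations correlated at 0.077, 0.042 and 0.209, and differently numbered ones at -0.131 to 0.069. LARP6 library 2 correlated best with control library 1 (0.059), and the other LARP6 libraries with the control of their own number. With the replicate block, 518 genes were higher and 827 lower, and among them CSTF3 (0.13) passed as higher and CARM1 (-0.10) as lower. Gene-level counts limit NEAT1 to the sum of its short and long RNAs at any depth.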
